A study of Mus musculus with 12 samples.

Results

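RNA sequencing of mouse peritoneal macrophages was examined for 8 genes of the interferon regulatory factor (IRF) family: Irf1, Irf2, Irf3, Irf4, Irf5, Irf7, Irf8 and Irf9. They were taken by name from a table of 24562 genes, each gene being read from its RefSeq transcript with the highest mean count, and all 8 had enough counts to be tested. The cells, phagocytes of the abdominal cavity, came from female mice on a high fat diet (HFD) or on chow and were taken at 24 h or 0 h of lipopolysaccharide (LPS), a ligand of Toll-like receptor 4 from bacterial outer membranes. The 12 libraries form 4 groups of 3: HFD 24 h, chow 24 h, HFD 0 h and chow 0 h. The labels give no strain, age or genotype. Cells cultured as long without LPS are not among the groups, so the effects of LPS and of elapsed time cannot be told apart, and 24 h against 0 h is called the LPS comparison here. Whether the libraries of a group are separate animals is not stated in the labels, and the spread behind every p-value may therefore be technical.

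IRF proteins share a DNA-binding domain that reads repeats of GAAA, the core of the interferon-stimulated response element. IRF3 is made constitutively and is switched on by phosphorylation when Toll-like receptors or cytosolic nucleic acid sensors fire, whereas IRF7 is itself an interferon-induced gene that amplifies type I interferon production. IRF9 is the DNA-binding subunit of the complex ISGF3, which carries the type I interferon signal to DNA. IRF1 drives many genes of the interferon gamma response, and IRF2 competes with it for the same sites. IRF5 serves inflammatory cytokine genes downstream of MyD88, IRF8 works with PU.1 in the macrophage lineage, and IRF4 takes part in alternative activation.

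The shallowest library, HFD 0 h replicate 3, held 2360244 counts and stands apart in depth, since the next lowest total was 9135057. The deepest, HFD 24 h replicate 3, held 20688308. Levels are CPM, counts relative to library totals scaled by TMM. In the shallowest library 3 counts equal 1.27 CPM. All 8 macrophage markers (among them Adgre1, Csf1r and Cd68) were detected in every group, and their summed level lay between 10194 and 12720 CPM in HFD 24 h, 10094 and 11364 in chow 24 h, 14187 and 15765 in HFD 0 h, and 14378 and 15690 in chow 0 h. B cell markers, of interest because B cells also make IRF4 and IRF8, summed to at most 26.2 CPM in any library. Irf4 itself lay between 5.62 and 11.7 CPM, and the part of B cells in its level was not tested. The labels carry a lane tag (lane 8) for all chow 24 h libraries and for HFD 24 h replicate 1 only. Since no chow 0 h library carries it, the LPS comparison in chow is fully confounded with the lane tag. In bulk RNA, fewer cells of a type and less RNA per cell cannot be told apart.

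On GRCm38.p6 the genes lie at chr11:53770014-53778374 (Irf1, transcript NM_008390), chr8:46739745-46847458 (Irf2, NM_008391), chr7:44997648-45002848 (Irf3, NR_045611), chr13:30749233-30766981 (Irf4, NM_013674), chr6:29526130-29541869 (Irf5, NM_012057), chr7:141263183-141266499 (Irf7, NM_016850), chr8:120736358-120756694 (Irf8, NM_008320) and chr14:55603985-55610030 (Irf9, NM_001159417). The Irf3 transcript is a noncoding isoform, and the coding transcript NM_016849 had 0.993 of its mean count. The exons of 5 of the genes overlap those of another gene in GENCODE M21: Irf1 with Gm17334 over 135 bases, Irf3 with Bcl2l12 over 88, Irf5 with Tnpo3 over 411, Irf7 with Phrf1 over 45 and Irf9 with Rnf31 over 123. Rnf31 lies on the strand of Irf9 and the other partners lie on the opposite strand. Since no source used here tells whether the counting used strand, reads in these stretches cannot be assigned to 1 of the 2 genes.

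The sequences upstream of the annotated starts were searched on both strands for the letters of sites through which interferon and LPS signals are known to reach IRF promoters. They are from RefSeq (GRCm38.p6), run 5′ to 3′ on the gene's strand and end just before the first base of the gene as given above, with matches in capitals. They hold 250 bases except for Irf7, whose RefSeq window is set on a start at chr7:141266424, 75 bases inside the gene, so that 175 bases lie before the gene. Irf1 (chr11:53769764-53770013, + strand) and Irf7 (chr7:141266500-141266674, − strand) are shown because they changed most with LPS, and Irf2 (chr8:46739495-46739744, + strand) and Irf8 (chr8:120736108-120736357, + strand) because they hold matches.
Irf7: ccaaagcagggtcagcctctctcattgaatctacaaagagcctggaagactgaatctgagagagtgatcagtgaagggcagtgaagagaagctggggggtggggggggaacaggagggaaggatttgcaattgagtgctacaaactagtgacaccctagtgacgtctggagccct
Irf1: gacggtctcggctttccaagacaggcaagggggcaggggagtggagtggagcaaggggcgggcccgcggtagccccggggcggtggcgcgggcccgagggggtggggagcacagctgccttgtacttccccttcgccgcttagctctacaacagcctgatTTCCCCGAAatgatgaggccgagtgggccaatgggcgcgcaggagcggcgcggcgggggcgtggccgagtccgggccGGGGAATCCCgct
Irf2: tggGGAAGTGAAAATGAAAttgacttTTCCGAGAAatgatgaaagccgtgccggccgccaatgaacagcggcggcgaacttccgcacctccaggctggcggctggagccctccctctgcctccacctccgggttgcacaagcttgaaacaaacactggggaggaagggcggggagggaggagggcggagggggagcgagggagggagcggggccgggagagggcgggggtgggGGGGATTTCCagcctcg
Irf8: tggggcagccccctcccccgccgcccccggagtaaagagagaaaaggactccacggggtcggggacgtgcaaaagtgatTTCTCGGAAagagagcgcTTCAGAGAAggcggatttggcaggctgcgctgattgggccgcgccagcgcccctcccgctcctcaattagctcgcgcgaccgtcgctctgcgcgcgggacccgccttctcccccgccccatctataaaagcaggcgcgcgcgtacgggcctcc

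Positions are counted back from the start of the window, with -1 the last base before it. The Irf1 sequence holds a gamma-activated site, TTCNNNGAA, at -90, and a kappa B site at -13 that matches on both strands. The Irf2 sequence opens with an ETS-IRF composite (GGAA, any 2 bases, GAAA) at -247 that shares bases with an interferon-stimulated response element core (GAAA, any 2 bases, GAAA) at -241, followed by a gamma-activated site at -224 and a kappa B site at -17. The Irf8 sequence holds 2 gamma-activated sites, at -171 and -153. None of the 4 motifs occurs in the RefSeq window of Irf7, which reaches no further than 175 bases before the gene, and this says only that these letters are absent there.

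In the windows of 250 bases before to 50 after a start, 3 of the 11 windows of the 8 genes held a match to any of the motifs, those of Irf1, Irf2 and Irf8. The only window of Irf5 lies on a start 495 bases inside the gene. The gamma-activated site was in 3 of the 11, against 8.30% of 32851 RefSeq promoter windows, and it is its own reverse complement, so that both strands give 1 match. The kappa B site was in 2 of the 11, against 4.51% of all windows. The response element core and the composite were in 1 of the 11 each, against 3.44% and 2.72% of all windows. A match is a run of letters and not a binding measurement.

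**Figure D1:**
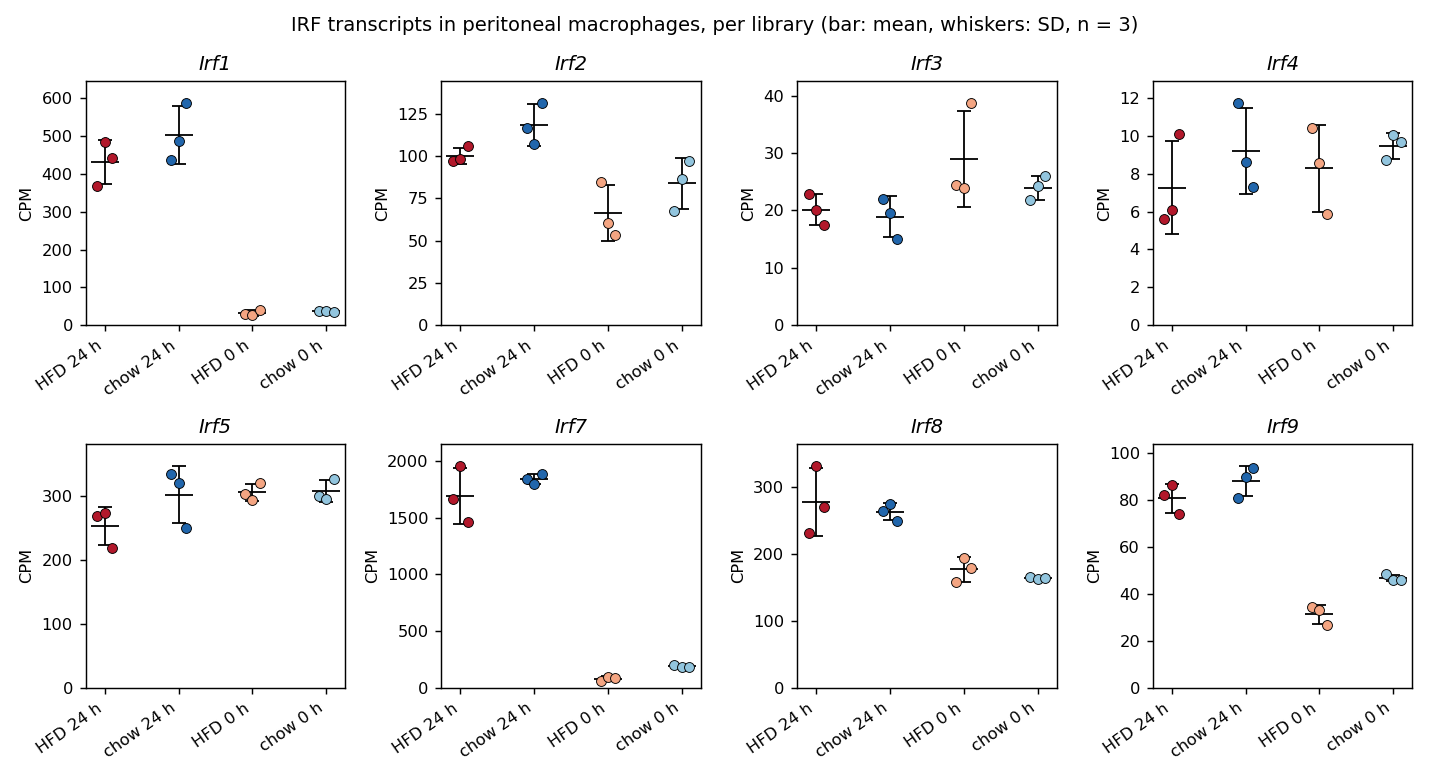
Level of each IRF gene in CPM (y axis, from 0, a scale of its own in each panel) in the 12 libraries (points), with the mean and SD of each group of 3 (HFD 24 h, chow 24 h, HFD 0 h, chow 0 h). Irf1 and Irf7 stood far higher at 24 h than at 0 h in both diets, and Irf7 averaged 80.2 CPM in HFD 0 h against 189.0 CPM in chow 0 h.

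In both diets Irf1, Irf2, Irf7, Irf8 and Irf9 rose with LPS and none of the 8 genes passed as lower. The largest changes were those of Irf7, 21.2-fold in HFD and 9.74-fold in chow, and of Irf1, 14.09-fold in HFD and 13.98-fold in chow. Calls were made with edgeR's quasi-likelihood F test, adjusted after Benjamini and Hochberg over 12641 genes, at 0.05. Of all genes 24.6% changed in HFD, 12.7% being higher, and 26.6% changed in chow, 13.7% being higher. The IRF genes thus had 5 of 8 higher in each diet. At an unadjusted p under 0.05 in edgeR stood 6 of 8 in HFD, beside 35.1% of all genes, and 5 of 8 in chow, beside 36.2%. In chow these were the same 5 genes, and in HFD Irf3 joined them with a negative log2 fold change. The median log2 fold change of the 8 genes was 0.61 in HFD, where that of all genes was -0.0023, and 0.59 in chow, where that of all genes was 0.0001.

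Irf7, the interferon-induced amplifier, was counted at 1664, 1956 and 1464 CPM in HFD 24 h and at 57.7, 98.3 and 84.5 CPM in HFD 0 h. In chow it stood at 1843, 1795 and 1887 CPM at 24 h and at 198.1, 182.2 and 186.8 CPM at 0 h. All 24 h libraries lay far above all 0 h libraries. The log2 fold change was 4.41 ± 0.19 (SE) in HFD (edgeR adjusted p = 4.01e-11), with a 95% interval of the fold from 16.1 to 28.0. In chow it was 3.28 ± 0.18 (edgeR adjusted p = 4.33e-10), with an interval of 7.51 to 12.6. Phrf1, whose exons overlap those of Irf7, did not pass in either diet, at 0.03 ± 0.15 in HFD and 0.08 ± 0.15 in chow.

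Irf1, which acts in the interferon gamma response, was at 368.0, 483.8 and 442.3 CPM in HFD 24 h, against 28.7, 26.0 and 40.0 CPM in HFD 0 h. In chow it was at 436.0, 488.1 and 587.2 CPM at 24 h, against 36.1, 38.3 and 33.6 CPM at 0 h. The diets had nearly the same estimate, and at neither time did the HFD and chow libraries separate. The log2 fold change was 3.82 ± 0.18 in HFD (edgeR adjusted p = 1.09e-10) and 3.81 ± 0.18 in chow (edgeR adjusted p = 8.64e-11). The 95% intervals of the fold were 10.8 to 18.4 in HFD and 10.8 to 18.1 in chow.

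Irf9, the DNA-binding subunit of ISGF3, was at 81.8, 86.1 and 73.8 CPM in HFD 24 h and 34.2, 32.9 and 26.5 CPM in HFD 0 h. In chow it was at 80.8, 89.7 and 93.3 CPM at 24 h and at 48.2, 46.0 and 46.0 CPM at 0 h. The 24 h libraries thus lay above the 0 h libraries in both diets, at a smaller distance than for Irf1 and Irf7. The change on the log2 scale was 1.34 ± 0.13 in HFD (edgeR adjusted p = 8.37e-07) and 0.91 ± 0.13 in chow (edgeR adjusted p = 3.61e-05). Rnf31, a subunit of the linear ubiquitin ligase whose exons overlap those of Irf9, rose as well, by 1.36 ± 0.16 in HFD (edgeR adjusted p = 4.90e-06) and by 1.41 ± 0.15 in chow (edgeR adjusted p = 1.87e-06). How much of the Irf9 change comes from shared reads was not tested.

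Irf8, a lineage factor of macrophages and dendritic cells, had 230.6, 331.1 and 269.0 CPM in HFD 24 h and 157.3, 193.7 and 179.4 CPM in HFD 0 h. In chow it had 264.4, 274.3 and 249.5 CPM at 24 h and 165.2, 162.7 and 164.5 CPM at 0 h. No 24 h library fell among the 0 h libraries in either diet. On the log2 scale the change was 0.65 ± 0.14 in HFD (1.57-fold, edgeR adjusted p = 0.0019) and 0.68 ± 0.14 in chow (1.60-fold, edgeR adjusted p = 0.00115). Fitted with the lane tag, the chow estimate was 1.06.

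Irf2, the competitor of IRF1, had 96.8, 98.4 and 105.7 CPM in HFD 24 h and 84.8, 60.3 and 53.5 CPM in HFD 0 h. In chow it had 116.6, 106.9 and 131.3 CPM at 24 h and 67.7, 86.5 and 97.2 CPM at 0 h. The groups did not overlap, yet the gap between the nearest libraries was small in both diets. In log2 units the fold change was 0.58 ± 0.17 in HFD (edgeR adjusted p = 0.0184) and 0.50 ± 0.17 in chow (edgeR adjusted p = 0.0357). This call hung on single libraries: in HFD it was lost without HFD 0 h replicate 2 or 3, at edgeR adjusted p = 0.0749 and 0.0626. In chow it was lost without chow 0 h replicate 1 or 2 or chow 24 h replicate 1 or 3, at edgeR adjusted p = 0.154, 0.0845, 0.057 and 0.0925, and with the lane tag in the model, at 0.287.

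Irf5, Irf3 and Irf4 did not pass in either diet. Irf5, the cytokine-gene factor downstream of MyD88, had 268.4, 273.5 and 219.1 CPM in HFD 24 h and 302.9, 294.9 and 321.0 CPM in HFD 0 h. In chow it had 335.1, 321.1 and 251.0 CPM at 24 h and 299.9, 296.2 and 327.1 CPM at 0 h. The HFD libraries did not overlap between the times, all 24 h values being the lower ones, while the chow libraries mixed. The change on the log2 scale was -0.27 ± 0.14 in HFD (edgeR adjusted p = 0.166, 95% interval -0.56 to 0.01) and -0.03 ± 0.13 in chow (edgeR adjusted p = 0.918, 95% interval -0.31 to 0.26). Tnpo3, a nuclear import receptor whose exons overlap those of Irf5, did not pass, at 0.35 ± 0.14 in HFD and 0.21 ± 0.13 in chow.

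Irf3, the constitutive factor that TBK1 phosphorylates, had 22.8, 20.1 and 17.5 CPM in HFD 24 h and 24.4, 23.9 and 38.7 CPM in HFD 0 h. In chow it had 22.02, 19.6 and 15.0 CPM at 24 h and 21.7, 24.2 and 25.9 CPM at 0 h. The HFD groups did not overlap and the chow groups did, by 1 library. Fitted log2 fold changes were -0.48 ± 0.20 in HFD (edgeR adjusted p = 0.0999) and -0.35 ± 0.20 in chow (edgeR adjusted p = 0.23). The highest 0 h value, 38.7 CPM, rests on 86 counts in the shallow HFD 0 h replicate 3, and without that library the HFD estimate was -0.26.

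Irf4, the factor linked to alternative activation, was the scarcest member, with 5.62, 6.10 and 10.1 CPM in HFD 24 h and 10.4, 8.57 and 5.84 CPM in HFD 0 h. In chow it had 11.7, 8.62 and 7.27 CPM at 24 h and 8.72, 10.1 and 9.65 CPM at 0 h. The times overlapped in both diets, and the lowest 0 h value rests on 13 counts. On the log2 scale the change was -0.24 ± 0.28 in HFD (95% interval -0.83 to 0.34) and -0.04 ± 0.26 in chow (95% interval -0.60 to 0.51), intervals that leave room for a change of more than 1.5-fold downward in either diet.

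With LPS, 3 of the 8 macrophage markers rose and 1 fell in each diet. Of 8 large peritoneal macrophage markers 2 rose and 2 fell in each diet. Markers of other cell types moved as well. Beside these counts, 12.7% of all genes were higher and 12% lower in HFD, and 13.7% were higher and 12.9% lower in chow. Of 5 monocyte markers 2 rose and 1 fell in each diet, and their sum was 799.8 to 1177 CPM in HFD 24 h, 1331 to 2098 in chow 24 h, 854 to 1558 in HFD 0 h and 1484 to 2047 in chow 0 h. Ly6c2 averaged 97.4 CPM in HFD 24 h and 1.70 CPM in HFD 0 h, and 125.7 CPM in chow 24 h and 2.45 CPM in chow 0 h. Ccr2, the chemokine receptor of inflammatory monocytes, averaged 1.61 CPM in HFD 24 h and 4.92 in HFD 0 h, and 1.23 in chow 24 h and 8.01 in chow 0 h.

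Of 6 NK cell markers 2 were tested, and 1 rose in HFD and 2 in chow, with sums of 1.19 to 5.10 CPM in HFD 24 h, 4.32 to 6.27 in chow 24 h, 1.25 to 2.25 in HFD 0 h and 1.05 to 2.25 in chow 0 h. Those 2, Prf1 and Nkg7, had 42 and 64 counts over HFD 24 h and 1 and 13 over HFD 0 h. Over chow they had 80 and 46 counts at 24 h and 4 and 6 at 0 h. Both passed the count filter mainly through 24 h libraries, which favours a rise among the NK markers tested. Of 9 dendritic cell markers 5 were tested and 1 rose in each diet, with sums of 17.3 to 20.1 CPM in HFD 24 h and 28.5 to 38.3 in chow 24 h, against 5.85 to 16.9 in HFD 0 h and 19.9 to 26.8 in chow 0 h. Cd209a was at 0 in all 24 h libraries, and near 0 before, with 3 counts over HFD 0 h and 6 over chow 0 h. Of 9 neutrophil markers 3 were tested, 1 rose in each diet and 1 fell in chow, with sums of 23.8 to 37.7 CPM in HFD 24 h and 37.7 to 67.7 in chow 24 h, against 15.7 to 17.7 in HFD 0 h and 19.3 to 22.4 in chow 0 h. S100a9 was at 0 in all 24 h and all HFD 0 h libraries, and had 3 counts over chow 0 h. Of 11 mesothelial and stromal markers tested 3 fell in HFD and 2 in chow. Summed over the 12 listed, their level was 1022 to 1150 CPM in HFD 24 h and 1072 to 3150 in chow 24 h. At 0 h the sum was 732 to 1450 CPM in HFD and 812 to 2563 in chow. Of 3 eosinophil markers tested 1 fell in each diet. Of 3 T cell markers tested 1 rose in HFD and 0 in chow. The T cell sum was 2.40 to 5.54 CPM in HFD 24 h and 3.73 to 4.41 in chow 24 h. At 0 h it was 0.45 to 3.23 CPM in HFD and 2.76 to 6.82 in chow. The part of these cell types in the IRF changes was not tested.

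Libraries of the 2 times did not overlap for 7 of the 8 genes in HFD, where 35.4% of all tested genes did not, and for 5 of the 8 in chow, where 45.5% did not. With the lane tag in the model, estimated from the HFD 24 h libraries alone, 5 genes passed in HFD and 4 in chow, Irf2 being the one lost. The chow estimates were then 4.14 for Irf1, 3.32 for Irf7 and 0.88 for Irf9. Of all genes, 1509 then passed in chow, against 3357 without the tag, and 2923 in HFD, against 3116. The chow libraries themselves cannot separate LPS from the lane tag.

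**Figure D2:**
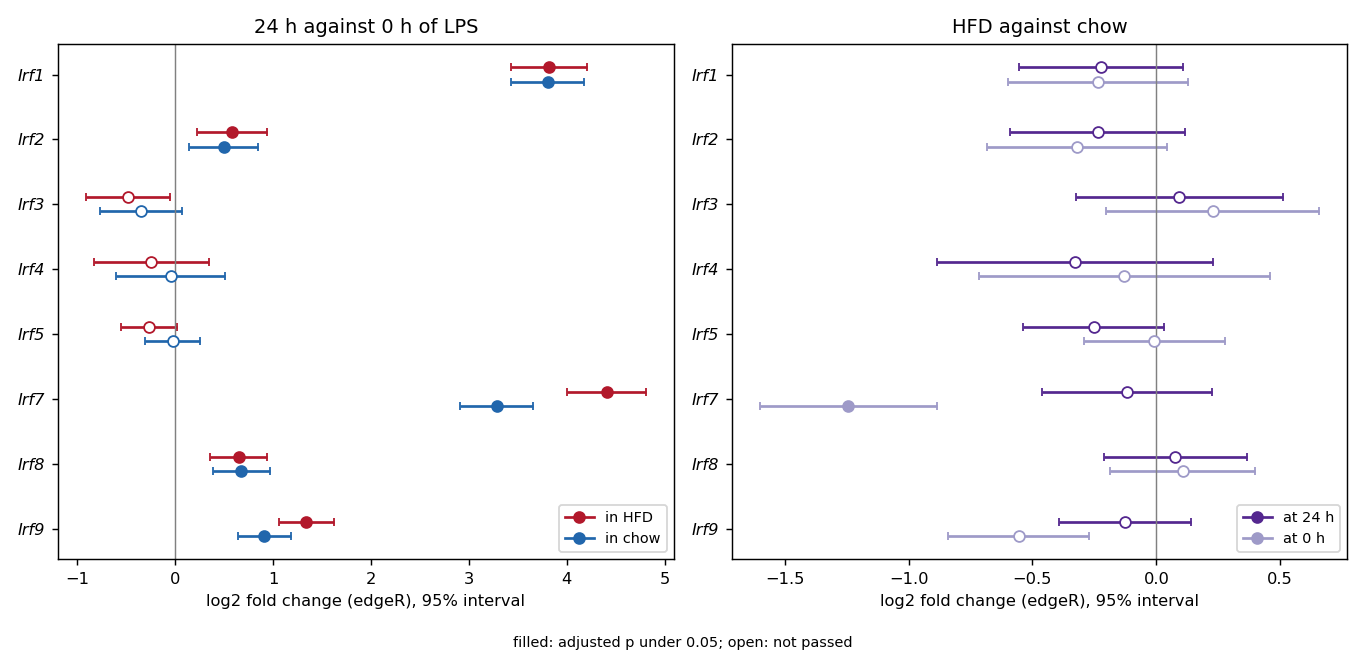
Log2 fold change of each IRF gene with its 95% interval, for 24 h against 0 h of LPS in HFD and in chow (left) and for HFD against chow at 24 h and at 0 h (right). Filled points passed an edgeR adjusted p of 0.05: 5 genes in each diet on the left, and on the right Irf7 at 0 h alone, at -1.24.

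Before LPS, Irf7 was lower in HFD than in chow, and it was the only one of the 8 genes to pass. Of the 12641 genes tested, 0.087% passed in this comparison, 11 genes that were all lower in HFD. Irf7 had 57.7, 98.3 and 84.5 CPM in HFD 0 h, against 198.1, 182.2 and 186.8 CPM in chow 0 h. The highest HFD library was well under the lowest chow library. Irf7 averaged 80.2 ± 20.7 CPM in HFD and 189.0 ± 8.2 CPM in chow (SD, n = 3 each), a log2 fold change of -1.24 ± 0.17 (edgeR adjusted p = 0.00291), which is 0.423 of the chow level with a 95% interval of 0.330 to 0.542. No 0 h library carries the lane tag. Leaving out the shallow HFD 0 h replicate 3 gave -1.28 (edgeR adjusted p = 0.016), and the smallest difference, -1.03 (edgeR adjusted p = 0.0277), came without HFD 0 h replicate 1.

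Irf9 was next, with 34.2, 32.9 and 26.5 CPM in HFD 0 h against 48.2, 46.0 and 46.0 CPM in chow 0 h. These libraries did not overlap either. The log2 fold change of -0.56 ± 0.13 had a 95% interval of -0.84 to -0.27 and an unadjusted p of 0.000736, but it did not pass over all genes in edgeR (adjusted p = 0.219). In DESeq2 it did (adjusted p = 0.0309), so that DESeq2 called 2 of the 8 genes, and 66 of all genes. Non-overlap was seen for these 2 of the 8 genes, against 12.2% of all genes.

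The other 6 genes differed by less between the diets at 0 h. Irf2 had -0.32 ± 0.17, Irf1 -0.23 ± 0.17 and Irf4 -0.13 ± 0.28 on the log2 scale. Irf5 was the closest to equal, at -0.01 ± 0.14, with a 95% interval of -0.29 to 0.28. Irf8 had 0.11 ± 0.14 and Irf3 0.23 ± 0.20. Over the 8 genes the median was -0.18, beside 0.0022 for all genes.

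Dendritic cell markers were looked at beside the Irf7 difference, since plasmacytoid dendritic cells are known for high IRF7. Of the 9 listed markers 5 were tested and none passed between the diets at 0 h. Their summed level was 5.85 to 16.9 CPM in HFD 0 h and 19.9 to 26.8 CPM in chow 0 h, mostly Ccr7, which averaged 5.72 CPM in HFD 0 h and 15.0 CPM in chow 0 h. Siglech, a marker of plasmacytoid cells, averaged 0.37 CPM in HFD 0 h and 0.65 CPM in chow 0 h. Monocyte markers summed to 854 to 1558 CPM in HFD 0 h and 1484 to 2047 CPM in chow 0 h, mostly Fn1, which averaged 1223 CPM in HFD 0 h and 1800 CPM in chow 0 h. Chil3 of that list lay the other way, at 39.9 CPM in HFD 0 h and 17.2 CPM in chow 0 h, and 0 of the 5 monocyte markers passed in edgeR. Their part in the Irf7 difference was not tested.

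At 24 h of LPS none of the 8 genes passed between the diets. In edgeR 0 of the 8 passed, 0 had an unadjusted p under 0.05 (7.86% of all genes did), and DESeq2 and limma-voom also called 0 of them. Among all genes 0.00791% passed, which is 1 gene. Irf7 averaged 1695 ± 248 CPM in HFD 24 h and 1842 ± 46.3 CPM in chow 24 h (SD, n = 3 each), a log2 fold change of -0.12 ± 0.16 with a 95% interval of -0.46 to 0.22. Irf9 averaged 80.6 ± 6.3 CPM in HFD 24 h and 87.9 ± 6.4 CPM in chow 24 h, a log2 fold change of -0.13 ± 0.13. Both intervals, the one for Irf9 being -0.39 to 0.14, leave out the sizes estimated at 0 h, which have SEs of their own. For Irf9 the interval at 0 h, -0.84 to -0.27, overlaps the one at 24 h. A difference between the times is what the interaction tests, given below, where neither gene passed in edgeR.

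The other 6 genes did not pass at 24 h either. Irf5 had -0.25 ± 0.13 and Irf1 -0.22 ± 0.16, Irf2 had -0.24 ± 0.17 and Irf4 -0.33 ± 0.26. Irf3 and Irf8 stood slightly above 0, at 0.09 ± 0.20 and 0.08 ± 0.14. Only the Irf2 libraries did not overlap between the diets, 1 of 8 genes against 12.3% of all genes. The nearest libraries there were 105.7 CPM in HFD 24 h and 106.9 CPM in chow 24 h. All chow 24 h libraries and 1 of the 3 HFD 24 h libraries carry the lane tag, so diet and lane are largely confounded here. With the lane tag fitted, the estimates were -0.71 for Irf4, -0.45 for Irf1, 0.27 for Irf3 and -0.19 for Irf8, and none of the 8 passed.

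Whether LPS changed the genes differently in HFD and in chow was tested as an interaction. In edgeR 0 of the 8 genes and 0% of all genes passed. At an unadjusted p under 0.05 stood 2 of the 8, Irf7 and Irf9, and 2.35% of all genes. For Irf7 the LPS response was larger in HFD by 1.12 ± 0.23 on the log2 scale (95% interval 0.63 to 1.62, unadjusted p = 0.000178, edgeR adjusted p = 0.395). In DESeq2 it passed (adjusted p = 0.0175), 1 of 9 genes called there, and in limma-voom it did not (adjusted p = 0.257, 0 genes called). For Irf9 the estimate was 0.43 ± 0.18 (unadjusted p = 0.0329, edgeR adjusted p = 0.9998). The estimates of the other 6 lay between -0.25 (Irf5) and 0.08 (Irf2), all with an edgeR adjusted p of 0.9998.

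Set beside each other per kilobase of transcript, the IRF genes changed rank with LPS. At 24 h Irf7 led, at 884 ± 129 CPM per kb in HFD and 961 ± 24.2 in chow (SD, n = 3 each), followed by Irf1 at 202 ± 27.4 in HFD and 236 ± 35.9 in chow. At 0 h Irf5 led in both diets, at 140 ± 6.1 CPM per kb in HFD and 141 ± 7.7 in chow. Irf4 was last in every group, between 1.52 CPM per kb in HFD 24 h and 1.99 in chow 0 h.

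The second place at 0 h differed between the diets. In HFD 0 h it belonged to Irf8, at 62.1 CPM per kb, followed by Irf7 at 41.8, which overlapped Irf2 at 26.5. In chow 0 h it belonged to Irf7, at 98.7 CPM per kb, followed by Irf8 at 57.7. Further down, the libraries of Irf1 and Irf3 overlapped in HFD 0 h, at 14.8 and 14.3 CPM per kb, and those of Irf1 and Irf9 in chow 0 h, at 16.9 and 15.8. At 24 h, Irf5 and Irf8 overlapped in HFD, at 116 and 97.3 CPM per kb, and no neighbours overlapped in chow.

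The summed level of the 8 genes was 1378 ± 169 CPM per kb in HFD 24 h and 1516 ± 34 in chow 24 h, against 312 ± 13.5 in HFD 0 h and 377 ± 11.1 in chow 0 h (SD, n = 3 each). Irf7 made up 64.1 ± 2.3% of that sum in HFD 24 h and 63.4 ± 0.7% in chow 24 h. At 0 h its share was 13.4 ± 3.1% in HFD and 26.2 ± 1.5% in chow. Irf5 held 8.43% in HFD 24 h and 9.14% in chow 24 h, against 44.9% in HFD 0 h and 37.3% in chow 0 h. The IRF transcript pool was thus mainly Irf5, Irf8 and Irf7 at 0 h and mainly Irf7 at 24 h. Transcript abundance does not give protein or activity.

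**Figure D3:**
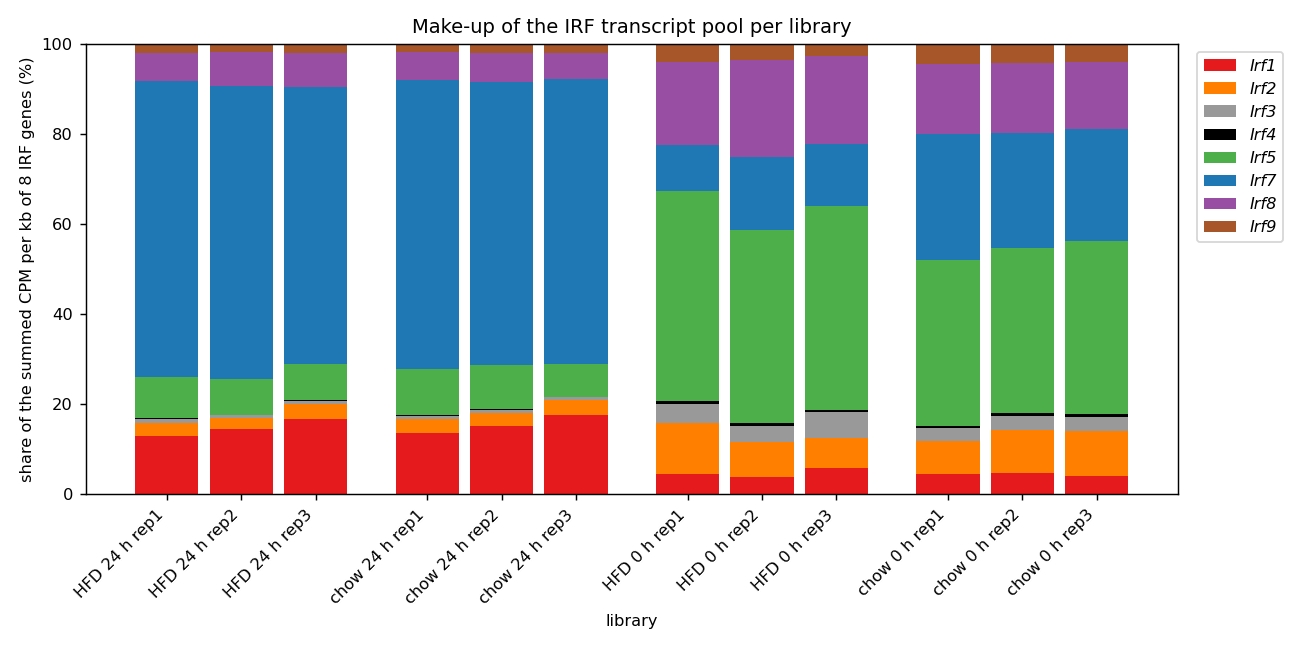
Share of each IRF gene in the summed CPM per kb of the 8 genes (y axis, percent) in each of the 12 libraries, HFD 24 h, chow 24 h, HFD 0 h and chow 0 h from left to right. Irf7 fills 61.4 to 65.6% of the HFD 24 h bars and 62.8 to 64.2% of the chow 24 h bars, against 10.1 to 16.3% in HFD 0 h and 25.0 to 27.9% in chow 0 h.

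The genes around the IRFs were counted in lists of signalling routes, partners, regulators and targets. The lists rest on textbook knowledge, were chosen with earlier results of these data known and share some genes. Their counts are therefore a description, and genes that move together are not separate evidence. Beside the LPS counts of the lists, 12.7% of all genes were higher and 12% lower in HFD, and 13.7% were higher and 12.9% lower in chow. The route from Toll-like receptors and nucleic acid sensors to the IRFs had 15 of 28 genes higher and 3 lower with LPS in each diet. The cytosolic RNA sensors rose: Ddx58 by 2.83 ± 0.17 in HFD and 2.54 ± 0.16 in chow on the log2 scale, Dhx58 by 3.10 ± 0.19 and 2.77 ± 0.18, and Ifih1 by 2.43 ± 0.17 and 2.16 ± 0.16. Cd14, the LPS co-receptor, rose by 2.22 ± 0.22 in HFD and 2.17 ± 0.22 in chow. Fitted with the lane tag, the chow counts were 10 higher and 1 lower. With 1 library left out the number lower was 1 in HFD without HFD 24 h replicate 3. In chow it was 1 without chow 0 h replicate 2 or 3 or chow 24 h replicate 2 or 3, and 5 without HFD 0 h replicate 3. Tlr4 itself did not pass, at 0.29 ± 0.20 in HFD and -0.35 ± 0.20 in chow.

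Of 13 interferon, receptor and kinase genes 8 had enough counts to be tested, and 4 rose and 1 fell with LPS in each diet. Jak2, a kinase of the interferon gamma receptor, rose 4.42-fold in HFD (95% interval 3.48 to 5.62) and 3.48-fold in chow (2.76 to 4.39). Ifnar2, a chain of the type I interferon receptor, rose by 1.32 ± 0.12 in HFD and 1.22 ± 0.12 in chow on the log2 scale. Ifngr1, a chain of the interferon gamma receptor, fell, at -0.90 ± 0.15 in HFD and -0.94 ± 0.15 in chow. Transcripts of Ifng itself summed to 226 counts in HFD 24 h and 269 in chow 24 h and were at 0 in all 0 h libraries. Ifng is among the 8 tested genes and passed the count filter through its 24 h libraries alone, so only a rise could be found for it. Against a floor of 3 counts over the group, that is at least 31.6-fold higher in HFD and at least 82.5-fold higher in chow. The chow bound leans on chow 24 h replicate 3, which held 191 of the 269 counts, and without it the bound was 38.4-fold, against 22.4-fold in HFD without its highest library, replicate 3. Ifnb1 had 7 counts in HFD 24 h and 10 in chow 24 h and 0 at 0 h, and Ifna1, Ifna2, Ifna4 and Ifna5 had 0 counts in every library. A count of 0 allows up to 3 counts, or 0.140 CPM over the HFD 0 h group and 0.0823 CPM over the chow 0 h group, counting error only.

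Among 11 DNA-binding partners of the IRFs, 4 rose in HFD and 5 in chow, and none passed as lower in the main fit. In chow 1 was lower in DESeq2, in limma-voom, and without chow 24 h replicate 1 or HFD 0 h replicate 2 or 3. Fitted with the lane tag, 1 was lower in HFD. Stat2, a partner of IRF9 in ISGF3, rose by 2.96 ± 0.15 in HFD and 2.46 ± 0.15 in chow. Batf2, a partner of IRF1, was at 71.9 ± 12.1 CPM in HFD 24 h and 3.64 ± 0.81 CPM in HFD 0 h, a log2 fold change of 4.39 ± 0.22 (edgeR adjusted p = 1.64e-10). In chow Batf2 was at 87.8 ± 13.6 CPM at 24 h and 3.24 ± 0.53 CPM at 0 h, or 4.76 ± 0.20 on the log2 scale (edgeR adjusted p = 3.43e-11). Batf, a partner of IRF4, is the gene that passed in chow (0.99 ± 0.22) and not in HFD (0.58 ± 0.23), and the difference between the diets had an edgeR adjusted p of 0.9998. The 3 IRF2-binding cofactors Irf2bp1, Irf2bp2 and Irf2bpl had 0 calls in edgeR in either diet, also at an unadjusted p under 0.05, in DESeq2 and in limma-voom. Fitted with the lane tag, 1 of the 3 was lower in each diet. With 1 library left out, up to 1 was lower in HFD and 0 in chow.

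Of 18 negative regulators of the IRFs and of interferon signalling, 11 rose and 2 fell in each diet. Isg15, a ubiquitin-like modifier, rose by 5.82 ± 0.26 in HFD and 5.70 ± 0.23 in chow, and Usp18, the protease that removes it, by 3.89 ± 0.30 and 3.60 ± 0.27. Socs1 and Socs3, inhibitors of JAK kinases, rose by 4.43 ± 0.29 and 4.07 ± 0.26 in HFD and by 4.91 ± 0.27 and 3.98 ± 0.25 in chow. Fitted with the lane tag, the chow counts were 8 higher and 1 lower. The number lower in chow was also 1 when either chow 24 h replicate 2 or chow 0 h replicate 1 was left out.

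The lists of IRF targets had the highest medians of the lists counted. All 25 listed genes with interferon-stimulated response elements rose in each diet, with a median log2 fold change of 4.29 in HFD and 3.21 in chow, and the same 25 passed in DESeq2 and limma-voom. Of 24 IRF1-linked and gamma-activated targets 23 rose in each diet, with a median of 3.37 in HFD and 3.51 in chow. Gbp5, an interferon-induced GTPase, rose by 7.75 ± 0.36 in HFD and 7.61 ± 0.33 in chow, and Tap1, a peptide transporter for antigen presentation, by 3.74 ± 0.18 and 3.36 ± 0.17.

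The lists named for IRF4 and IRF8 were mixed. Of 13 IRF4-linked and alternative activation genes 4 rose and 3 fell in each diet. Mrc1, the mannose receptor, fell (-1.99 ± 0.19 in HFD, -2.89 ± 0.20 in chow), as did Pparg (-2.05 ± 0.17, -2.22 ± 0.17), a nuclear receptor of lipid metabolism, while Il4ra, the interleukin 4 receptor chain, rose (1.06 ± 0.19, 1.05 ± 0.18). Fitted with the lane tag, the chow counts of this list were 1 higher and 2 lower. Of 14 IRF8-linked myeloid genes 5 rose and 1 fell in HFD, and 4 rose and 1 fell in chow. With 1 library left out, 3 to 6 rose in chow, and 0 fell without chow 0 h replicate 2 or 3 or chow 24 h replicate 3. Ctsc, a lysosomal protease, rose by 2.27 ± 0.16 in HFD and 1.97 ± 0.16 in chow, and Cybb, a subunit of the phagocyte oxidase, by 1.52 ± 0.18 and 0.85 ± 0.18.

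**Figure D4:**
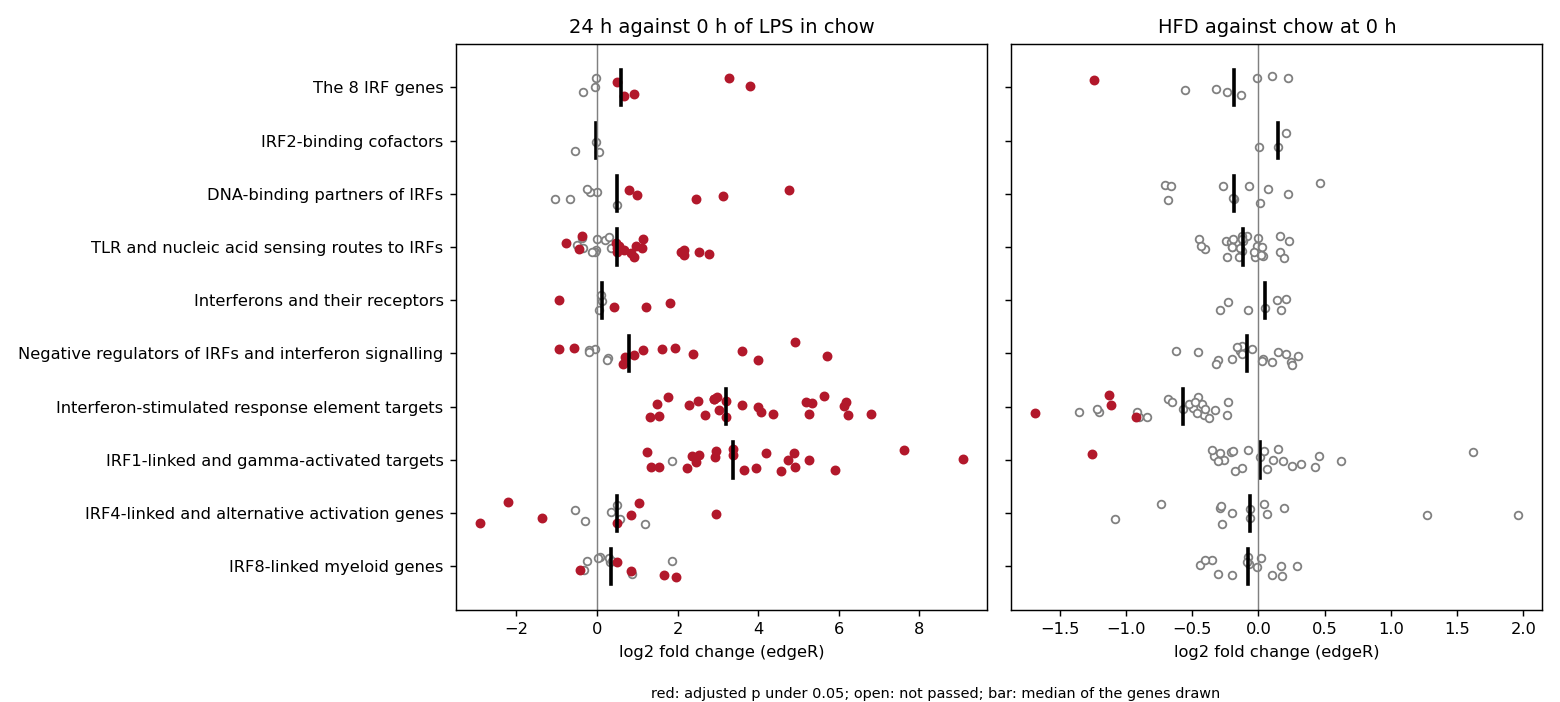
Log2 fold change of the IRF genes and of each tested gene in the lists around them, for 24 h against 0 h of LPS in chow (left) and HFD against chow at 0 h (right), with red points past an edgeR adjusted p of 0.05 and bars at the median of the points drawn. Ifng and Nos2, at or near 0 counts at 0 h, are left out. The 25 response element targets lie right of 0 under LPS and left of 0 for diet, where 4 of them passed.

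At 0 h the response element targets lay below 0 in HFD against chow, as Irf7 did. All 25 estimates were negative, with a median log2 fold change of -0.57, but only 4 of the 25 passed, against 0.087% of all genes. These were Rtp4, with 12.5 ± 4.8 CPM in HFD and 42.8 ± 5.1 CPM in chow (-1.68 ± 0.22, edgeR adjusted p = 0.0021), Oas3 (-1.11 ± 0.14, edgeR adjusted p = 0.00182), Zbp1 (-1.12 ± 0.18, edgeR adjusted p = 0.0162) and Oasl2 (-0.92 ± 0.17, edgeR adjusted p = 0.0471). All 4 are interferon-induced antiviral genes. DESeq2 called 5 of the 25, limma-voom 2, and edgeR called 2 without HFD 0 h replicate 1, the shallow HFD 0 h replicate 3 or chow 0 h replicate 1.

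The other lists held 1 further call at 0 h. Ccl5, a chemokine of the IRF1-linked list, was at 40.6 ± 6.9 CPM in HFD and 98.2 ± 12.2 CPM in chow (-1.25 ± 0.15, edgeR adjusted p = 0.00134), while the 24 genes of its list had a median of 0.03. Stat2 had -0.66 ± 0.15 and did not pass (edgeR adjusted p = 0.172). Over the 141 tested genes of all lists, 0 were higher and 5 lower in edgeR, 1 and 7 in DESeq2, and 0 and 3 in limma-voom. Over all 12641 genes, 0 were higher and 11 lower in edgeR, 9 and 57 in DESeq2, and 1 and 7 in limma-voom.

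At 24 h none of the 141 list genes passed between the diets in edgeR, and none in limma-voom. In edgeR 15 of the 141 had an unadjusted p under 0.05, beside 7.86% of all genes. DESeq2 called 1 higher and 1 lower, beside 22 higher and 21 lower among all 12641 genes. For the interaction none passed in edgeR or limma-voom, and 13 had an unadjusted p under 0.05 in edgeR, beside 2.35% of all genes. DESeq2 called 4 with a larger and 1 with a smaller estimate in HFD, beside 8 and 1 among all 12641 genes. The estimates for the 4 response element targets and Ccl5 at 24 h were -0.30 ± 0.19 for Rtp4, -0.02 ± 0.13 for Oas3, -0.02 ± 0.15 for Zbp1, -0.16 ± 0.16 for Oasl2 and -0.01 ± 0.14 for Ccl5.

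The genes whose pattern over the 12 libraries was most like that of each member were found by Pearson's r of log2 CPM. The libraries separate by LPS, which sets most of these values, so they are given as a description. For Irf7 they were Ly6e (r = 0.996), Cfb (0.994) and Ccl5 (0.994), and for Irf9 Rtp4 (0.992), Clec4d (0.988) and Gbgt1 (0.987). For Irf1 they were Irgm2, Clic5 and Znfx1, each at 0.997. Among the members themselves, Irf7 had r = 0.973 with Irf9 and 0.974 with Irf1.

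The remaining members had lower values. For Irf8 they were Ldha (0.977), Glipr2 (0.972) and Fbxl5 (0.971), for Irf2 Stau1 (0.962), Babam2 (0.953) and Rbm22 (0.950), and for Irf3 Otud5 (0.963), Parp16 (0.962) and Zfp865 (0.959). Irf5, with Rhov (0.918), Fermt3 (0.917) and Cox19 (0.902), and Irf4, with Cx3cl1 (0.852), Abhd1 (0.846) and 1700088E04Rik (0.835), had the lowest.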

How the data were processed

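RNA of 12 peritoneal macrophage libraries had been isolated with a Qiagen RNeasy kit and made into libraries with a NuGen Ovation kit, per the labels' protocols. Per the submitters' processing notes, the authors used CASAVA 1.8.2, STAR 2.5.2b and the build mm10. For the counter, its annotation and its use of strand, nothing is given in these sources. The deposited table holds raw counts for 35745 RefSeq identifiers, of which 35440 were matched to symbols in a RefSeq table, 188 in GENCODE and 117 in neither. Identifiers without a symbol held 2.34 to 12.0% of a library's total.

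The highest-mean transcript stood for each gene, since isoforms share reads. Counts were scaled with TMM, filtered with filterByExpr by group (12641 genes) and fitted by 4 group means in edgeR 4.0.16 (robust glmQLFit, then glmQLFTest; R 4.3.3), all 12 libraries together. Adjusted p-values follow Benjamini and Hochberg, and the threshold was 0.05. The SE is the absolute log2 fold change over the square root of F, and 95% intervals use the fit's degrees of freedom. The script was tested on simulated data. Library pairs differed beyond sampling noise, so all 12 were kept. Lengths came from GENCODE M21 transcripts, and promoters from RefSeq. Floors (3 counts) cover counting error only.

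Members and lists were chosen with earlier results of these data known. Named genes were all members, the 3 genes most like each (Pearson's r of log2 CPM, prior count 2), and up to 4 genes per list with the smallest adjusted p, plus list genes at 0. Genes whose exons overlap a member, marker genes, Tlr4, Tap1 in chow and the values of Ccl5 and the targets at 24 h were named outside this rule after their values were seen. Alternatives were other scalings and filters, DESeq2 1.42.0, limma-voom 3.58.1, only the groups compared, a replicate block, the lane tag as a covariate, isoform sums, identifiers without a symbol left out, and each library left out. One alternative, leaving out both HFD libraries with label number 7, was added after seeing the data.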

Additional observations from a re-analysis of the deposited data

How the results depend on the processing

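Over 24 alternatives for each comparison (23 for the interaction), 942 of the log2 fold changes of the 8 genes kept their direction, where called, and their side of the threshold, 8 lost their call, 2 gained one and 0 reversed. The 8 losses were all of Irf2 (edgeR adjusted p up to 0.142 in HFD, without both libraries of label number 7, and up to 0.287 in chow). The 2 gains came with DESeq2, which called 2 of the 8 genes for HFD against chow at 0 h (Irf7 and Irf9) and 1 for the interaction (Irf7); the cause was not tested. With 1 library left out at a time, the IRF genes called numbered 4 to 5 for LPS in HFD, 4 to 5 for LPS in chow, 1 to 1 for HFD against chow at 0 h, 0 to 0 at 24 h and 0 to 0 for the interaction. Irf7 at 0 h passed under all 24, from -1.44 to -1.03.

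Counts over all genes moved more. For LPS in chow 3357 genes passed and 1509 with the lane tag as a covariate. For HFD against chow at 0 h 11 passed, 66 in DESeq2, 23 without a filter, 18 with a block, 25 without HFD 24 h replicate 2 and 7 without chow 0 h replicate 2. At 24 h 1 passed, 43 in DESeq2, 10 each in limma-voom and without a filter, 5 without label number 7, 0 with the lane tag or only the groups compared, and 0 to 4 with a library left out. For the interaction 0 passed, 9 in DESeq2, 4 with a block, 3 without a filter and 0 to 3 with a library left out. Upper-quartile factors moved the split of LPS calls in chow to 44.6% higher, against 51.5% with TMM, and no scaling moved the median of all genes further than to -0.0763.

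Libraries of the 2 times that share a label number deviated together with r between 0.0293 and 0.346, and not all pairs were above 0.1, so the number was not taken as a pairing; whether it marks shared animals is not stated in the labels. With the number (LPS, interaction) or the replicate (diet) as a replicate block, 3397 genes passed for LPS in HFD and 3714 in chow, and the IRF genes called were 5 for each of these, 1 for diet at 0 h, 0 at 24 h and 0 for the interaction. Of 96 values (32 group levels under 3 alternatives each) 12 moved by more than the SD, 11 of them when identifiers without a symbol were left out. Depth limits Irf4, at 13 counts in HFD 0 h replicate 3.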
